A study of Mus musculus with 24 samples.

Results

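The respiratory chain of mitochondria is built from subunits whose genes lie in 2 genomes, and its genes were followed here through tumour-infiltrating CD8+ T cells and regulatory T (Treg) cells of the mouse. The members were the rows of the gene table whose symbol begins as the subunits of complexes I to V do (Nduf, Sdh, Uqcr, Cox4 to Cox8, Atp5, and mt- for the mitochondrial genome), without symbols that carry the pseudogene mark -ps. This gave 102 of the 54957 gene rows (26497 rows were above 0 in at least 1 library). Of the 102 members, 89 are encoded in the nucleus and 13 in mitochondrial DNA. The nuclear members comprise 38 of complex I, 4 of complex II, 8 of complex III, 21 of complex IV and 18 of complex V, and the mitochondrially encoded ones 7 of complex I, 1 of complex III, 3 of complex IV and 2 of complex V. The symbols matched also took in 4 processed pseudogenes (Ndufa11b, Ndufb4c, Ndufs6b and Cox6c2) and Cox7a2l, an assembly factor of supercomplexes that is no fixed subunit of complex IV.

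Complexes I and II pass electrons from NADH and succinate to ubiquinone, complex III passes them to cytochrome c, and complex IV to oxygen. The proton gradient that complexes I, III and IV build drives complex V, the ATP synthase. Complex II is encoded in the nucleus alone, whereas the other complexes need subunits from both genomes. The mitochondrial genes are transcribed as long precursors that are cut into messengers inside the organelle. T cells enlarge their respiratory capacity when they are activated, and Treg cells are known to depend on respiration for their suppressive function.

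The libraries came from mice that carried B16F10-OVA tumours, a melanoma line engineered to make ovalbumin as a model antigen. The mice received 200 µg of anti-JAML antibody, of anti-PD-1 antibody or of an isotype control antibody, and tumours were taken 1 day later. JAML is an adhesion receptor found on some T cells, and PD-1 is a checkpoint receptor that restrains T cells after activation. From the tumours, fewer than 400 CD8+ T cells or CD4+FOXP3+ Treg cells were sorted and their polyadenylated RNA was amplified by Smart-seq2, a full-length method for small samples. There were 4 libraries in each of 6 groups, namely CD8 anti-JAML, CD8 anti-PD-1, CD8 isotype, Treg anti-JAML, Treg anti-PD-1 and Treg isotype. All mice therefore carried tumours and received an antibody. Neither the strain nor the age of the mice, nor the antibody clones, were stated in the labels. Whether each library of a group had its own mouse is likewise unstated, and a p-value here covers only library-to-library spread, technical spread included.

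Total counts ran from 11170918 to 22556460 per library, with a median of 16238787, and 12643 to 15356 genes were detected per library. The sorted populations carried their defining markers. Levels of genes are given in CPM, counts scaled to a library total of 1e6. For the summed markers this is the plain library total, and for single genes below it is the total adjusted by edgeR's TMM factors. Cd8a and Cd8b1 together had 2117 to 2907 CPM in CD8 libraries and 12.4 to 46.7 CPM in Treg libraries. Foxp3 was at 0 in every CD8 library, and the 5 Treg markers together had 192 to 510 CPM in CD8 and 2067 to 3190 CPM in Treg libraries. Summed markers of macrophages and monocytes (8 of 8 genes detected) exceeded 500 CPM in 3 libraries, CD8 anti-JAML replicate 2 (542 CPM) and Treg anti-PD-1 replicates 1 and 4 (up to 1224 CPM), against at most 51.8 CPM in CD8 isotype and 76.7 CPM in Treg isotype libraries. CD8 anti-JAML replicates 2 and 4 and Treg isotype replicate 3 also stood apart from their groups in earlier results of these data. Values without these libraries are given beside several of the results. Of the other lists, 5 erythroid genes summed to 0.304 to 594, 0.649 to 6.59 and 0 to 243 CPM in CD8 anti-JAML, anti-PD-1 and isotype libraries, and to 0.673 to 1391, 0.755 to 656 and 0 to 1.15 CPM in the same Treg groups. The 5 NK cell genes had 104 to 167, 73.8 to 148 and 52.2 to 80.5 CPM in the CD8 groups, with Ncr1 at 0 in all of them, and at most 5.65 CPM in Treg libraries. The 7 genes of handling stress had 221 to 554, 217 to 368 and 185 to 279 CPM in the CD8 groups, and 301 to 484, 374 to 510 and 300.3 to 496 CPM in the Treg groups. Melanoma, dendritic cell, stromal and B cell lists reached at most 102, 216, 109 and 53.2 CPM in any library. The part of these cells and of handling in the results was not tested. In bulk samples, fewer cells of a type and less RNA per cell cannot be told apart.

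Among the mitochondrially encoded members, several had almost no counts, and the sequences are shown because those genes share them with a copy in the nuclear genome. The mouse reference holds a copy of part of the mitochondrial genome on chromosome 1 (mm10, chr1:24611535-24616197, minus strand), which is annotated as a run of unprocessed pseudogenes. The first 120 bases of mt-Co2 (chrM:7013-7132), a core subunit of complex IV, are the same letters as those of its copy Gm28661 (chr1:24615446-24615565, minus strand). Those of mt-Nd3 (chrM:9459-9578), a complex I subunit, differ from those of Gm28438 (chr1:24613000-24613119, minus strand) by T3C, counted from the first base of mt-Nd3 and marked by the capital. The sequences were taken from the transcripts of GENCODE M21, on mm10.
mt-Co2: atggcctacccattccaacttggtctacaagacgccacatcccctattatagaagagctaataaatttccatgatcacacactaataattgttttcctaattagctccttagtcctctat
Gm28661: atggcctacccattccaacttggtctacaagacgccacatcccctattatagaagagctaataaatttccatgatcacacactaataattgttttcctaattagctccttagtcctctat
mt-Nd3: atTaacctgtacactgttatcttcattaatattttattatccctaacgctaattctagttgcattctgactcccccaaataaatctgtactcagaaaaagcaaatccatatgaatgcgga
Gm28438: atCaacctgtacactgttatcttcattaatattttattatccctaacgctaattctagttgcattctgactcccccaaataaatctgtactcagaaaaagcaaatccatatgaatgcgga

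Over their whole annotated length, the copies Gm28661 (of mt-Co2), Gm10925 (of mt-Atp6), Gm28437 (of mt-Co3), Gm10222 (of mt-Nd4l) and Gm28439 (of part of mt-Nd4) matched the mitochondrial gene in 681 of 681, 678 of 678, 783 of 783, 294 of 294 and 876 of 876 bases. Gm28438 matched mt-Nd3 in 344 of 345 bases, and Gm29216 matched part of mt-Co1 in 486 of 492 bases. Each mitochondrial transcript was cut into all its windows of 50 bases, and each window was looked up in the transcripts of every other gene. All windows of mt-Co2 (100%) were found in another gene, as were 99.9% of mt-Co3, 99.5% of mt-Atp6, 98.8% of mt-Nd4l and 98.0% of mt-Nd3. The share was 62.2% for mt-Nd4, 51.1% for mt-Co1, 8.19% for mt-Nd2, 7.61% for mt-Nd5 and 0% for mt-Nd1, mt-Nd6 and mt-Cytb.

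The 5 genes with nearly all windows shared had the fewest reads but for mt-Atp8. Their totals over all 24 libraries were 219 counts for mt-Co2, 506 for mt-Co3, 503 for mt-Atp6, 1511 for mt-Nd3 and 13 for mt-Nd4l. The copies were low as well, with 170 counts for Gm28661, 458 for Gm28437, 645 for Gm10925, 874 for Gm28438 and 44 for Gm10222. mt-Atp8, which lies between mt-Co2 and mt-Atp6 and overlaps mt-Atp6, had 7 counts in 6 libraries although 0% of its windows were found in an annotated gene. The chromosome 1 copy has no annotated gene over that stretch. How reads with several matches were counted is not stated in the labels, and its part in these low values was not tested. The medians given below for mitochondrially encoded members leave out these 6 genes and cover the other 7.

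**Figure D1:**
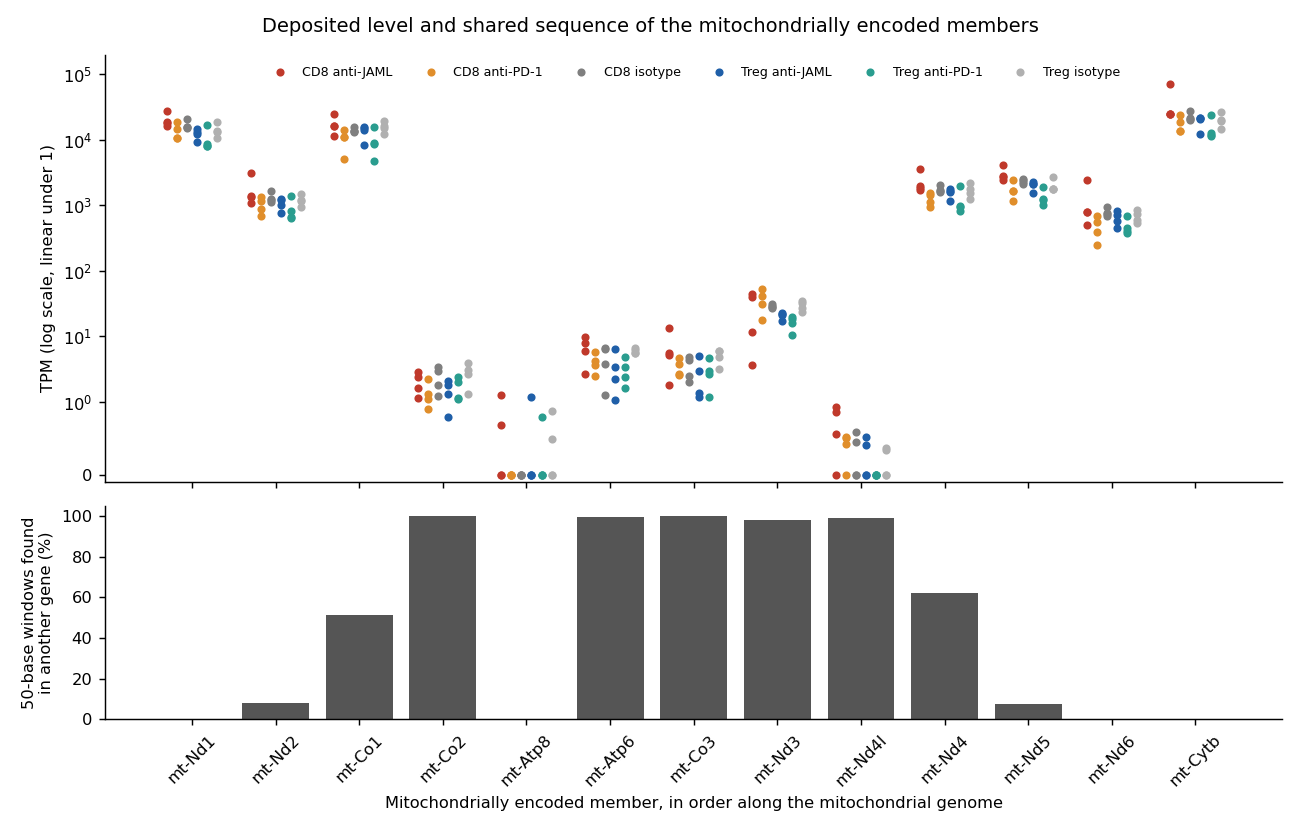
Upper panel, deposited TPM (length-corrected level, log scale, linear under 1) of the 13 mitochondrially encoded members in each library, in their order along the mitochondrial genome and coloured by group. Lower panel, share of each gene's windows of 50 bases that also occur in another gene: mt-Co2, mt-Atp6, mt-Co3, mt-Nd3 and mt-Nd4l, which share 98.0% or more of their windows, have median levels of 25.2 TPM or less, and mt-Atp8, which shares 0%, is also at the bottom.

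The other 7 mitochondrially encoded members carried 99.97% of all counts in the 13. By TPM, which corrects for gene length, the median over 24 libraries was 21148 for mt-Cytb, the cytochrome b of complex III. It was 14794 for mt-Nd1, a membrane subunit of complex I, and 13869 for mt-Co1, the catalytic subunit of complex IV. The complex I subunits mt-Nd5, mt-Nd4, mt-Nd2 and mt-Nd6 followed with 2097, 1612, 1184 and 679 TPM. mt-Nd6 is the one member on the opposite strand, so its reads cannot be told from those of transcripts opposite to it if strand was not counted. By counts, mt-Cytb made up 36.8%, mt-Co1 31.1% and mt-Nd1 20.7% of the mitochondrially encoded total, mt-Nd5 5.59%, mt-Nd4 3.31%, mt-Nd2 1.85% and mt-Nd6 0.537%. Much of the sequence of mt-Co1 and mt-Nd4 also occurs in another gene, unlike that of mt-Cytb and mt-Nd1. The levels, shares and ranks of mt-Co1 and mt-Nd4 are therefore less certain, and the part of shared sequence in them was not tested.

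Of the 89 nuclear members, 75 had a median of at least 10 TPM, in a range from 13.7 to 2240 TPM with a median of 443 TPM. The most abundant subunit by TPM was Ndufa1 in complex I (2240 TPM), the iron-sulphur subunit Sdhb in complex II (750 TPM), Uqcr11 in complex III (1424 TPM), Cox6b1 in complex IV (2115 TPM) and Atp5c1, the gamma subunit of the ATP synthase, in complex V (1035 TPM). By complex, the middle subunit stood at 326 TPM for complex I, 389 for II, 683 for III, 744 for IV and 450 for V. These levels depend on the length used: the deposited TPM fit the length of all exons of a gene joined, which was over 2 times the main transcript in 28 of the 75 genes. With the main transcript's length instead, the 75 ran from 99.65 to 2892 TPM with a median of 711 TPM. Rescaled to the main transcript, the most abundant subunits were Ndufa3 (2892 TPM), Sdhb (1470 TPM), Uqcrh (2119 TPM), Cox4i1 (2605 TPM) and Atp5b (2181 TPM), so that the leading subunit was unchanged in complex II alone. For Atp5b, the catalytic beta subunit of the ATP synthase, that length was 4237 bases against 1916 in the main transcript.

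Where complex IV has tissue-specific isoforms, the T cells carried the general form. Cox4i1 had a median of 1286 TPM and Cox4i2, the lung form, was listed at 0, with 17 counts in 2 libraries. Cox6a1 had 1888 TPM and the heart and muscle form Cox6a2 was listed at 0, with 15 counts in 2 libraries. Cox6b1 had 2115 TPM and the testis form Cox6b2 1.55 TPM. Cox7a2 had 1075 TPM, Cox7a2l 411 TPM and the heart and muscle form Cox7a1 7.04 TPM. Cox7b (734 TPM) and Cox8a (2098 TPM) were present while Cox7b2, Cox8b and Cox8c had no count in any library. Ndufa4, now counted with complex IV, had 755 TPM and Ndufa4l2, which is known as a hypoxia-induced relative, had none. The 3 genes that encode the same mature c-ring subunit of the ATP synthase stood at 145 TPM (Atp5g1), 141 TPM (Atp5g2) and 443 TPM (Atp5g3). Rescaled to the main transcript they stood at 151, 324 and 1337 TPM, so their relation depends on the length used. In addition, 87.4% of the windows of Atp5g2 also occur elsewhere. In all, 14 nuclear members had a median under 10 TPM, the highest of them Ndufb4c (7.75 TPM) and the lowest above the bound Atp5l (13.7 TPM). For Atp5l the length used was 6443 bases against 544 in the main transcript, and rescaled it stood at 162 TPM. More than 50% of its windows also occur elsewhere.

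Nuclear members together took their largest share of a library in CD8 cells after isotype. The share of all counts was 2.95, 1.61, 2.94 and 2.63% in CD8 anti-JAML libraries 1 to 4, 3.25, 2.43, 3.09 and 2.45% in CD8 anti-PD-1, and 3.31, 3.24, 3.41 and 3.33% in CD8 isotype. It was 1.82, 1.91, 2.53 and 2.37% in Treg anti-JAML, 2.72, 1.84, 1.87 and 2.09% in Treg anti-PD-1, and 2.83, 2.35, 2.29 and 2.02% in Treg isotype. The 4 CD8 isotype libraries lay close together and above every Treg library and every CD8 anti-JAML library. The mean was 3.32 ± 0.07% in CD8 isotype and 2.37 ± 0.34% in Treg isotype (SD, n = 4 each), a ratio of 1.40, and 2.53 ± 0.63% in CD8 anti-JAML, 0.762 times that of CD8 isotype. No p is given for these sums, because the members were chosen with earlier results of these data known.

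Mitochondrially encoded members did not follow that pattern. Their share was 3.54, 2.44, 3.53 and 6.89% in CD8 anti-JAML, 2.59, 1.46, 3.29 and 1.92% in CD8 anti-PD-1, and 3.06, 2.88, 3.87 and 3.01% in CD8 isotype libraries. It was 1.54, 2.68, 2.98 and 3.04% in Treg anti-JAML, 3.38, 1.49, 1.20 and 1.505% in Treg anti-PD-1, and 3.08, 2.98, 4.003 and 2.09% in Treg isotype libraries. The groups overlapped in all 9 pairs compared. Single libraries set the widest ranges, CD8 anti-JAML replicate 4 at 6.89% and Treg anti-PD-1 replicate 1 at 3.38%.

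The log2 ratio of the mitochondrially encoded to the nuclear share was 0.26, 0.60, 0.27 and 1.39 in CD8 anti-JAML, -0.33, -0.73, 0.09 and -0.35 in CD8 anti-PD-1, and -0.11, -0.17, 0.18 and -0.14 in CD8 isotype libraries. All CD8 anti-JAML libraries thus lay above all CD8 anti-PD-1 and all CD8 isotype libraries, the nearest being 0.26 after anti-JAML and 0.18 after isotype. The ratio was -0.24, 0.49, 0.23 and 0.36 in Treg anti-JAML, 0.31, -0.30, -0.64 and -0.47 in Treg anti-PD-1, and 0.12, 0.35, 0.81 and 0.05 in Treg isotype libraries, and these groups overlapped. The means were 0.63 ± 0.53 in CD8 anti-JAML, -0.33 ± 0.34 in CD8 anti-PD-1 and -0.06 ± 0.16 in CD8 isotype, and 0.21 ± 0.32 in Treg anti-JAML, -0.27 ± 0.42 in Treg anti-PD-1 and 0.33 ± 0.34 in Treg isotype (SD, n = 4 each). The CD8 anti-JAML mean lay between 0.38 and 0.75 when 1 of its libraries was left out.

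**Figure D2:**
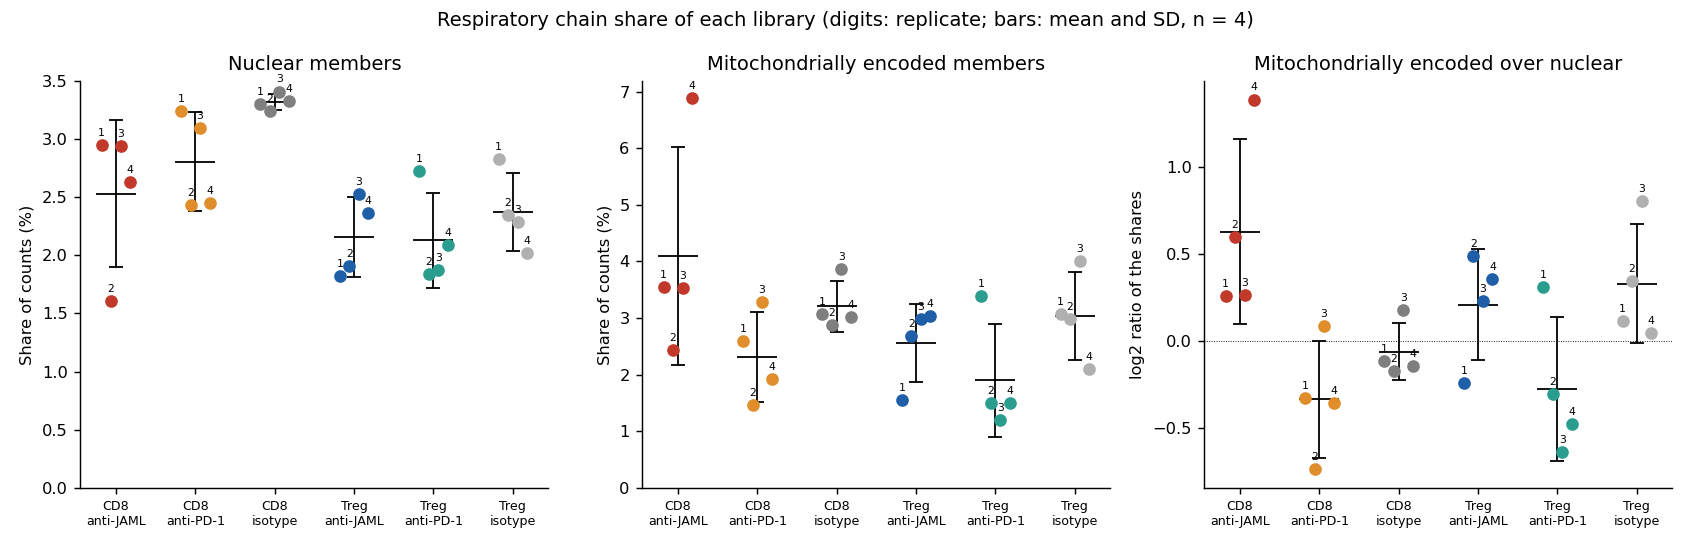
Share of each library's counts in nuclear (left) and mitochondrially encoded (middle) members, and the log2 ratio of the shares (right); each point is 1 library with its replicate number, and bars give the mean and SD of 4. CD8 isotype libraries sit between 3.24 and 3.41% for nuclear members, above every Treg library, whereas the mitochondrially encoded shares of all groups overlap.

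By complex, every nuclear sum was higher in CD8 isotype than in Treg isotype libraries without overlap. Complex V differed by the largest ratio, 1.59 (1.06 ± 0.01% and 0.666 ± 0.074%, SD, n = 4 each), against 1.39 for complex IV, 1.31 for complex I, and 1.26 for each of complexes III and II. After anti-PD-1, the complex V sums did not overlap either (0.967% in CD8 and 0.693% in Treg, ratio 1.40), and after anti-JAML only those of complex II did not (0.148 and 0.117%, ratio 1.27). Between CD8 anti-JAML and CD8 isotype libraries all 5 complexes were lower without overlap, by 0.701 times for complex IV and 0.904 times for complex II at the ends of the range. Transcripts of ribosomal proteins also had their largest mean share in CD8 isotype. They took 6.73 ± 2.18% of counts in CD8 anti-JAML, 7.05 ± 1.84% in CD8 anti-PD-1 and 9.03 ± 0.45% in CD8 isotype (SD, n = 4 each). In the same Treg groups they took 5.44 ± 1.12%, 4.65 ± 1.53% and 6.01 ± 0.94% (SD, n = 4 each). CD8 isotype lay above Treg isotype without overlap, but CD8 anti-JAML and CD8 isotype overlapped. In Treg anti-PD-1 they took 0.774 times their share in Treg isotype, where complexes II and V each took 1.04 times theirs. The part of a shift shared with these transcripts in the members' values was not tested.

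After the isotype antibody, part of the nuclear members stood higher in CD8 than in Treg cells, led by the ATP synthase. In edgeR's quasi-likelihood test over all 14591 genes, 12 of the 79 nuclear members tested were higher in CD8 and 0 lower at a Benjamini-Hochberg adjusted p under 0.05 (15.2%), where 7.09% of all genes tested were higher, 4.82% lower and 11.9% differed in either direction. Of the mitochondrially encoded members, 0 of 11 were called by edgeR, and 0 had an unadjusted p under 0.05. Over the 79 nuclear members the median log2 fold change was 0.60, with 77 above 0, against a median of 0.00 over all genes tested. Over the 7 abundant mitochondrially encoded members it was 0.30, with 6 above 0. With genes detected as a covariate it was 1.00, and 38 nuclear and 6 mitochondrially encoded members were called, where 12.4% of all genes were. CD8 isotype libraries also lay below all Treg isotype libraries in handling-stress genes (185 to 279 and 300.3 to 496 CPM), whose part in the result was not tested. The 12 called members were 6 subunits of the ATP synthase, 5 of complex I and 1 of complex II, and none of complexes III and IV. In 41 of the 79 the groups did not overlap, all higher in CD8, where this held for 11% of all genes tested (10.1% were lower without overlap).

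In the ATP synthase, Atp5b, its catalytic beta subunit (mm10, chr10:128083273-128090391, plus strand), had 2209, 2358, 1983 and 2311 CPM in CD8 isotype libraries, against 982, 756, 702 and 1252 CPM in Treg isotype libraries. Every CD8 library was above every Treg library, and the log2 fold change was 1.41 ± 0.22 (SE; adjusted p = 0.000128, edgeR). Atp5a1, the alpha subunit that alternates with beta in the catalytic head, had 896, 985, 778 and 941 CPM in CD8 and 518, 344, 542 and 698 CPM in Treg libraries, again without overlap (0.92 ± 0.19, adjusted p = 0.00220, edgeR). Atp5g1 (chr11:96068852-96075670, minus strand), which makes the membrane ring that turns as protons pass, had 411, 472, 507 and 513 CPM in CD8 and 252, 203, 188 and 177 CPM in Treg libraries. These too were separate (1.35 ± 0.29, adjusted p = 0.00280, edgeR).

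Further members of the ATP synthase called were Atp5pb and Atp5h, of the stalk that holds the head still (0.76 ± 0.22 and 0.80 ± 0.25), and Atp5d, the delta subunit of the central stalk (0.46 ± 0.15). Their adjusted p-values were 0.0218, 0.0419 and 0.0399 in edgeR's test. All 17 nuclear ATP synthase members tested had a log2 fold change above 0, from 0.46 to 1.41. Of the transcripts of Atp5h, 47.9% of the windows of 50 bases also occur in another gene, and of Atp5pb 23.2%, so their counts are less certain than those of Atp5b (0.86%) and Atp5a1 (0%). The share for Atp5g1 was 11.6%.

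In complex I the called members belong to the arm that takes electrons from NADH and to the accessory set. Ndufv1 (chr19:4007384-4012806, minus strand), which binds NADH, had 214, 193, 180 and 206 CPM in CD8 isotype libraries, against 129, 156, 65.1 and 137 CPM in Treg isotype libraries. Ndufs1 (chr1:63143596-63176833, minus strand), which carries iron-sulphur clusters, had 113, 113, 120 and 116 CPM in CD8, against 46.3, 49.4, 71.9 and 115 CPM in Treg. For Ndufv1 the groups did not overlap, and for Ndufs1 Treg replicate 4 lay among the CD8 libraries. The log2 fold changes were 0.85 ± 0.20 for Ndufv1 and 0.86 ± 0.22 for Ndufs1 (adjusted p = 0.00487 and 0.00986, edgeR). The accessory subunits Ndufa9 (0.85 ± 0.22, adjusted p = 0.0117), Ndufa10 (0.75 ± 0.20, adjusted p = 0.0131) and Ndufa12 (1.04 ± 0.32, adjusted p = 0.0374) were called by the same edgeR test. For Ndufa12, 53.8% of windows occur in another gene, and 5.93% of those of Ndufs1 lie in Ino80dos, which overlaps it, so that their reads cannot be told apart if strand was not counted.

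In complex II, Sdhd (chr9:50596357-50603812, minus strand), a membrane anchor of the complex, had 463, 416, 526 and 442 CPM in CD8 isotype libraries, against 374, 349, 350 and 188 CPM in Treg isotype libraries. The groups did not overlap (0.69 ± 0.21, adjusted p = 0.0292, edgeR). Just outside the threshold lay Uqcrc1, a core subunit of complex III (log2 fold change 0.49, adjusted p = 0.0543, edgeR), Ndufc2 of complex I (0.94, 0.0587) and Ndufa4 of complex IV (0.99, 0.0590).

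Atp5b, Atp5a1, Atp5g1, Ndufv1, Ndufs1 and Ndufa9 were called in all 24 fits that leave out 1 library, Ndufa10 in 23, Atp5pb in 21, Sdhd in 19, Ndufa12 in 15, Atp5h in 12 and Atp5d in 10. Other choices ended some of these calls. Ndufs1 was lost by limma, without the libraries that stand apart, with no filter on low counts and in a fit of the 2 compared groups alone, and Ndufv1 was lost in the last of these. Of the 12 members, 10 were also called by limma and 10 without the libraries that stand apart (Atp5pb was lost besides), 7 in the fit of the compared groups alone and 5 with no filter. The number of members called was 7 without CD8 isotype replicate 3 and 20 without Treg isotype replicate 1. For these fits the share of all genes called is not given, so a change in members cannot be told from a change over all genes. Without the 3 libraries of high macrophage markers, none of which is in these 2 groups, 26 members were called, the 12 among them, where 11.7% of all genes were.

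**Figure D3:**
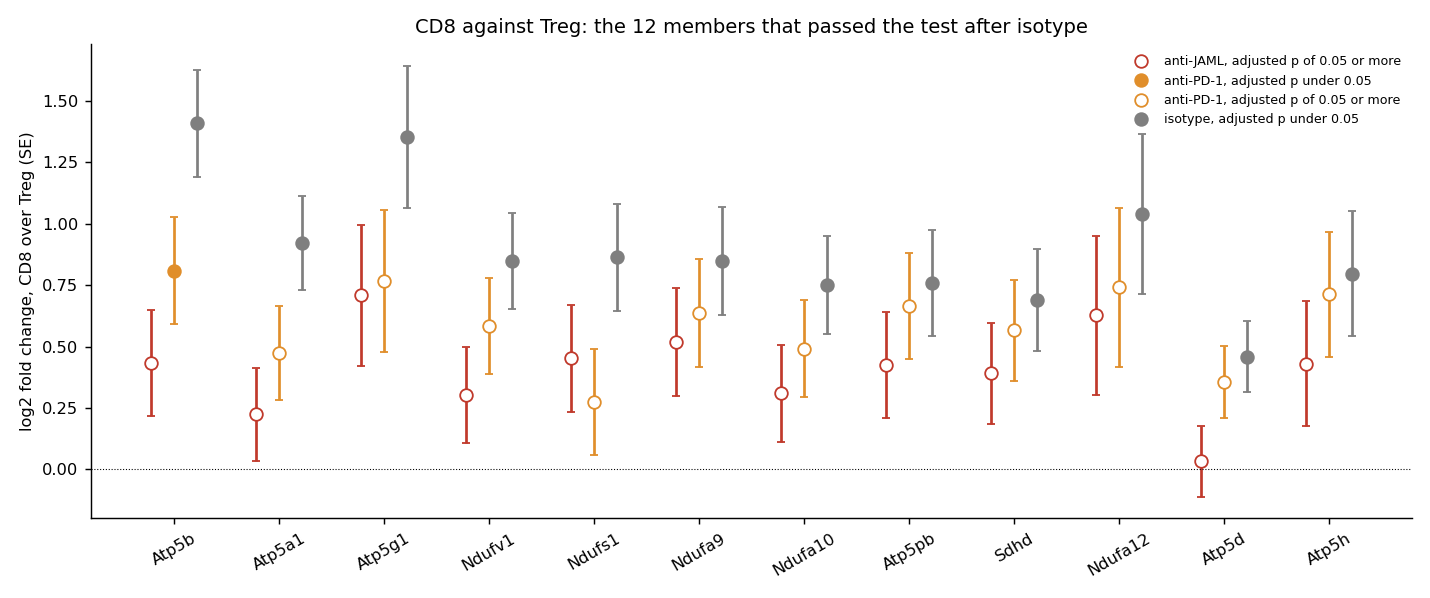
Log2 fold change of CD8 over Treg (points, with SE) after anti-JAML, anti-PD-1 and isotype for the 12 members that passed the test after isotype; filled points have an adjusted p under 0.05. The members were picked by the isotype comparison, whose point is the highest for all 12; the anti-JAML point is the lowest for all but Ndufs1, and Atp5b after anti-PD-1 is the only filled point outside the isotype comparison.

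After anti-PD-1, 1 of the 79 nuclear members was higher in CD8 than in Treg cells by edgeR, and 0 lower, where 2.45% of all genes tested were higher and 5.08% differed in either direction. This was Atp5b, with 2543, 2050, 2479 and 2942 CPM in CD8 and 1574, 1427, 1483 and 1578 CPM in Treg libraries (log2 fold change 0.81 ± 0.22, adjusted p = 0.0291, edgeR). The groups were separate, as they were for 3 nuclear members in all, where this held for 6.72% of all genes tested (8.43% were lower without overlap). The median over nuclear members was 0.52, with 78 of 79 above 0, against -0.08 over all genes tested, and 23 members had an unadjusted p under 0.05, where 19.7% of all genes did. This count rests on single libraries: 13 members were called without Treg anti-PD-1 replicate 1, and 0 without any 1 of Treg anti-PD-1 replicates 2, 3 and 4 or CD8 anti-PD-1 replicates 1, 3 and 4. It was 2 without Treg isotype replicate 3, CD8 anti-PD-1 replicate 2 or CD8 anti-JAML replicate 1, and 3 without CD8 anti-JAML replicate 2. The share of all genes called is not given for these fits, so no change particular to the members can be read from them. Without the 3 libraries of high macrophage markers the count of members was 23, namely 22 nuclear members and mt-Nd1, where 6.65% of all genes were called. Atp5b was not among these 23, nor among the 4 members that limma called, and its call was also lost with no filter on low counts.

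After anti-JAML, 0 of the 79 nuclear and 0 of the 11 mitochondrially encoded members were called by edgeR, where 4.56% of all genes tested were (2.24% higher). At an unadjusted p under 0.05 there were 10, where 18.4% of all genes were, and DESeq2 called 1, where it called 9.09% of all genes. This was the complex I subunit Ndufs7 (0.65 ± 0.22, adjusted p = 0.0940 in edgeR's test). The median over nuclear members was 0.29, with 70 of 79 above 0, and the median over the 7 abundant mitochondrially encoded members was 0.74, with all 7 above 0. mt-Cytb had a log2 fold change of 0.96 ± 0.40 (adjusted p = 0.196, edgeR). In the other complexes the members of smallest p were Sdhb (0.47 ± 0.25, adjusted p = 0.317), the iron-sulphur protein Uqcrfs1 of complex III (0.56 ± 0.23, 0.191), Cox5a (0.54 ± 0.33, 0.420) and Atp5g1 (0.71 ± 0.29, 0.179), by edgeR. Without CD8 anti-JAML replicate 4 the mitochondrially encoded median was 0.32. Without the 3 libraries of high macrophage markers 7 members were called, where 5.18% of all genes were, and 3 without CD8 anti-JAML replicate 2 alone, where 5.39% were. The count was 1 without CD8 anti-JAML replicate 4 and 1 without Treg anti-JAML replicate 3, where 3.6% and 4.44% of all genes were.

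Within CD8 cells, no member passed the threshold for either antibody. Between anti-JAML and isotype, 0 of 90 members were called by edgeR, as were 0% of all 12648 genes tested. At an unadjusted p under 0.05 there were 16 members, where 11.7% of all genes were, and DESeq2 called 2, where it called 1.71% of all genes. The median over the 79 nuclear members was -0.52, with 76 below 0, against 0.09 over all genes tested. For 33 of the 79 every anti-JAML library lay below every isotype library, where this held for 5.17% of all genes tested, and 0 lay above, where 3.23% of all genes did. Without CD8 anti-JAML replicate 2 the median was -0.30, and without the libraries that stand apart it was -0.25. Summed NK cell genes were higher in these anti-JAML than in the isotype libraries (104 to 167 and 52.2 to 80.5 CPM, Ncr1 at 0), and their part in the result was not tested.

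The 2 members that DESeq2 called were Atp5d and Sdhd. Atp5d had 352, 320, 375 and 318 CPM in CD8 anti-JAML libraries, against 493, 450, 462 and 470 CPM in CD8 isotype libraries. Sdhd had 389, 285, 330 and 304 CPM after anti-JAML, against 463, 416, 526 and 442 CPM after isotype. In both, all 4 anti-JAML libraries were below all isotype libraries. The log2 fold changes were -0.47 ± 0.14 for Atp5d and -0.51 ± 0.15 for Sdhd, with an adjusted p of 0.303 for each in edgeR's test, and of 0.0295 and 0.0410 in DESeq2's. In the other complexes the member of smallest p was Ndufb6 (-0.77 ± 0.29, adjusted p = 0.363, edgeR), Uqcrh, the hinge subunit of complex III (-0.61 ± 0.33, 0.494), and Cox4i1 (-0.56 ± 0.25, 0.412).

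The mitochondrially encoded members stood on the other side of 0 in this comparison. All 7 abundant members had a log2 fold change above 0 between CD8 anti-JAML and CD8 isotype, with a median of 0.17. mt-Cytb had 12602, 8296, 12305 and 33470 CPM after anti-JAML, against 11192, 10475, 15507 and 11040 CPM after isotype. The groups overlapped, and the log2 fold change of 0.46 ± 0.38 did not pass (adjusted p = 0.665, edgeR). Without CD8 anti-JAML replicate 4 it was -0.13 and the median of the 7 was -0.16, so the direction rests on that library.

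Between CD8 anti-PD-1 and CD8 isotype, 0 members were called by edgeR or DESeq2, as were 0% of all genes tested by edgeR, and 2 had an unadjusted p under 0.05, where 5.61% of all genes did. The median over nuclear members was -0.38, with 72 of 79 below 0, against 0.04 over all genes tested. In 18 the anti-PD-1 libraries lay below all isotype libraries and in 2 above, where this held for 3.28% and 3.74% of all genes tested. Members of smallest p in complexes II to V were Sdha, the flavoprotein of complex II (0.55 ± 0.32, adjusted p = 0.955), Uqcrh (-0.57 ± 0.33, 0.971), Cox7a2l (-0.44 ± 0.19, 0.865) and Atp5h (-0.47 ± 0.25, 0.936), all by edgeR. All 7 abundant mitochondrially encoded members were below 0, with a median of -0.57. With genes detected as a covariate this median was 0.061, so its direction depends on that choice. mt-Nd4 had the smallest p (-0.62 ± 0.30, adjusted p = 0.912, edgeR).

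Between CD8 anti-JAML and CD8 anti-PD-1, 0 members were called by edgeR or DESeq2 and 1 other gene was called lower by edgeR (0.00791% of all genes tested). At an unadjusted p under 0.05 there were 10 members, 6 nuclear and 4 mitochondrially encoded, where 9.97% of all genes were. The median was -0.16 over nuclear members and 0.74 over the 7 abundant mitochondrially encoded ones, of which all 7 were above 0; with genes detected as a covariate it was -0.057. In 3 nuclear members the anti-JAML libraries lay below all anti-PD-1 libraries and in 0 above, where this held for 3.03% and 2.76% of all genes tested. mt-Nd4 had 1142, 691, 1195 and 2057 CPM after anti-JAML, against 890, 477, 962 and 595 CPM after anti-PD-1. The groups overlapped (0.79 ± 0.31, adjusted p = 0.377, edgeR), as they did for mt-Cytb (0.98 ± 0.39, adjusted p = 0.391, edgeR). Atp5d (-0.39 ± 0.14, adjusted p = 0.312), Sdhd (-0.28 ± 0.15, 0.575), Uqcrc2 of complex III (-0.22 ± 0.17, 0.769) and Cox7a2l (0.46 ± 0.19, 0.426) had the smallest edgeR p of complexes II to V. Without CD8 anti-JAML replicate 4 the mitochondrially encoded median was 0.43, and without CD8 anti-JAML replicate 2 the nuclear median was 0.06.

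**Figure D4:**
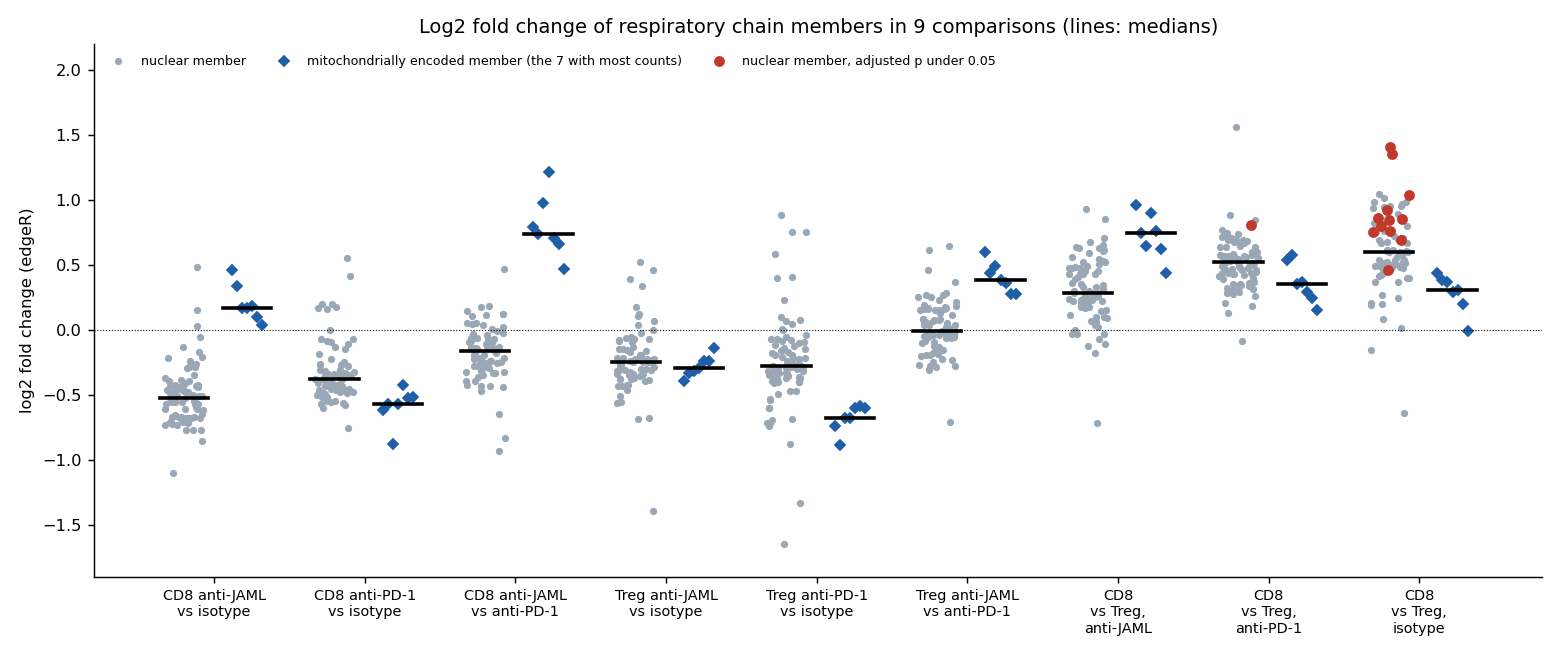
Log2 fold change of the 79 nuclear members tested (circles; red where the adjusted p is under 0.05) and of the 7 mitochondrially encoded members with most counts (diamonds) in 9 comparisons, with lines at the medians of these points. The nuclear median is -0.52 for CD8 anti-JAML against isotype and 0.60 for CD8 against Treg after isotype, and the diamonds lie above 0 in the first of these and below 0 for CD8 anti-PD-1 against isotype. The first 3 comparisons share CD8 libraries, and the next 3 share Treg libraries.

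Within Treg cells, too, 0 members were called by edgeR in any of the 3 comparisons. Between Treg anti-PD-1 and Treg isotype, 13 members had an unadjusted p under 0.05, where 14.1% of all 12981 genes tested did, 0.0231% of genes were called (0.0154% higher and 0.0077% lower), and DESeq2 called 2 members, where it called 4.79% of all genes. These were Atp5b and Cox7a2l. Atp5b had 1574, 1427, 1483 and 1578 CPM after anti-PD-1, against 982, 756, 702 and 1252 CPM after isotype. Cox7a2l (chr17:83501918-83517330, minus strand), which joins complex III to complex IV in supercomplexes, had 243, 160, 129 and 197 CPM after anti-PD-1, against 424, 396, 288 and 267 CPM after isotype.

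In both genes the groups did not overlap, Atp5b being higher and Cox7a2l lower after anti-PD-1, where this held for 4.52% and 3.82% of all genes tested. The log2 fold change was 0.75 ± 0.19 for Atp5b and -0.88 ± 0.24 for Cox7a2l, with adjusted p-values of 0.121 and 0.140 in edgeR's test and 0.00424 and 0.0119 in DESeq2's. Without Treg isotype replicate 4, edgeR called Atp5b. The nuclear median was -0.28, with 67 of 79 below 0, and the median over the 7 abundant mitochondrially encoded members was -0.68, with all 7 below 0. mt-Nd5 had the smallest p of these (-0.74 ± 0.30, adjusted p = 0.289, edgeR). Without Treg anti-PD-1 replicate 1, which had high macrophage markers, the medians were -0.51 and -1.12. Other members of smallest p per complex were Ndufb10 (-0.72 ± 0.24, adjusted p = 0.204), Sdha (0.40 ± 0.30, 0.644) and Uqcrh (-0.72 ± 0.29, 0.283), by edgeR.

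Between Treg anti-JAML and Treg isotype, 0 members and 0% of genes were called by edgeR, DESeq2 called 0 members, and 4 had an unadjusted p under 0.05, where 5.38% of all genes did. The nuclear median was -0.25, with 69 of 79 below 0, and that of the 7 mitochondrially encoded ones -0.30, with all 7 below 0. In 0 members were the libraries separate, where 1.58% of all genes were higher and 1.15% lower without overlap. Ndufs7 had a log2 fold change of -0.68 ± 0.24 and Atp5b of 0.46 ± 0.19 (adjusted p = 0.853 and 0.864, edgeR), Sdhb of -0.38 ± 0.25, Uqcrq of complex III of -0.39 ± 0.27, Cox6a1 of -0.37 ± 0.30 and mt-Co1 of -0.40 ± 0.40. Between Treg anti-JAML and Treg anti-PD-1, 0 members were called by edgeR or DESeq2, and 1 had an unadjusted p under 0.05, where 5.72% of all genes did and 0% were called. This was Cox7a2l, with 213, 290, 304 and 343 CPM after anti-JAML, against 243, 160, 129 and 197 CPM after anti-PD-1 (0.61 ± 0.24, adjusted p = 0.775, edgeR). mt-Nd5 had the smallest p of the mitochondrially encoded members (0.60 ± 0.30, adjusted p = 0.932, edgeR). For Cox7a2l the groups overlapped, as in every member, where 2.78% of all genes were higher and 1.87% lower without overlap. The nuclear median was -0.01 and the mitochondrially encoded median 0.39, and without Treg anti-PD-1 replicate 1 these were 0.24 and 0.89. Libraries also differed in the number of genes detected, 14372 ± 719 in Treg anti-JAML, 14720 ± 500 in Treg anti-PD-1 and 13265 ± 763 in Treg isotype (SD, n = 4 each). With that number as a covariate, the nuclear and mitochondrially encoded medians turned to 0.20 and 0.46 between anti-JAML and isotype and to 0.29 and 0.31 between anti-PD-1 and isotype, so their direction depends on this choice.

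Whether an antibody acted differently on the members in the 2 populations was tested by the interaction, the log2 effect against isotype in CD8 minus that in Treg cells. By edgeR, 0 members and 0% of genes were called for either antibody. At an unadjusted p under 0.05 there were 3 members for anti-JAML, where 8.39% of all genes were, and 0 for anti-PD-1, where 6.25% were. DESeq2 called 0 members for either. Atp5b had the smallest p for anti-JAML, with a difference of -0.98 ± 0.30 (adjusted p = 0.368, edgeR). Its group means were 1608 ± 524 CPM in CD8 anti-JAML and 2215 ± 167 CPM in CD8 isotype, and 1273 ± 194 CPM in Treg anti-JAML and 923 ± 251 CPM in Treg isotype (SD, n = 4 each). CD8 anti-JAML replicate 4, at 846 CPM, was the lowest of its group, and without the libraries that stand apart the difference was -0.57. The members of smallest p in complexes I to IV were Ndufv1 (-0.55 ± 0.28, adjusted p = 0.616), Sdhc of complex II (-0.49 ± 0.37, 0.830), Uqcrb of complex III (-0.65 ± 0.49, 0.836) and Cox4i1 (-0.43 ± 0.37, 0.895), by edgeR. For anti-PD-1, Atp5b differed by -0.60 ± 0.30 (adjusted p = 0.816, edgeR), Ndufs1 by -0.59 ± 0.31, Sdhc by -0.20 ± 0.37, Uqcrc1 by -0.18 ± 0.23 and Cox7a2l by 0.42 ± 0.32. The median difference over nuclear members was -0.33 for anti-JAML and -0.12 for anti-PD-1, and over the 7 abundant mitochondrially encoded members 0.44 and 0.069. The mitochondrially encoded medians turned to -0.54 and -0.44 with genes detected as a covariate, so their direction depends on this choice. Without CD8 anti-JAML replicate 4 the anti-JAML median was 0.069, and without Treg anti-PD-1 replicate 1 the anti-PD-1 median was 0.60.

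**Figure D5:**
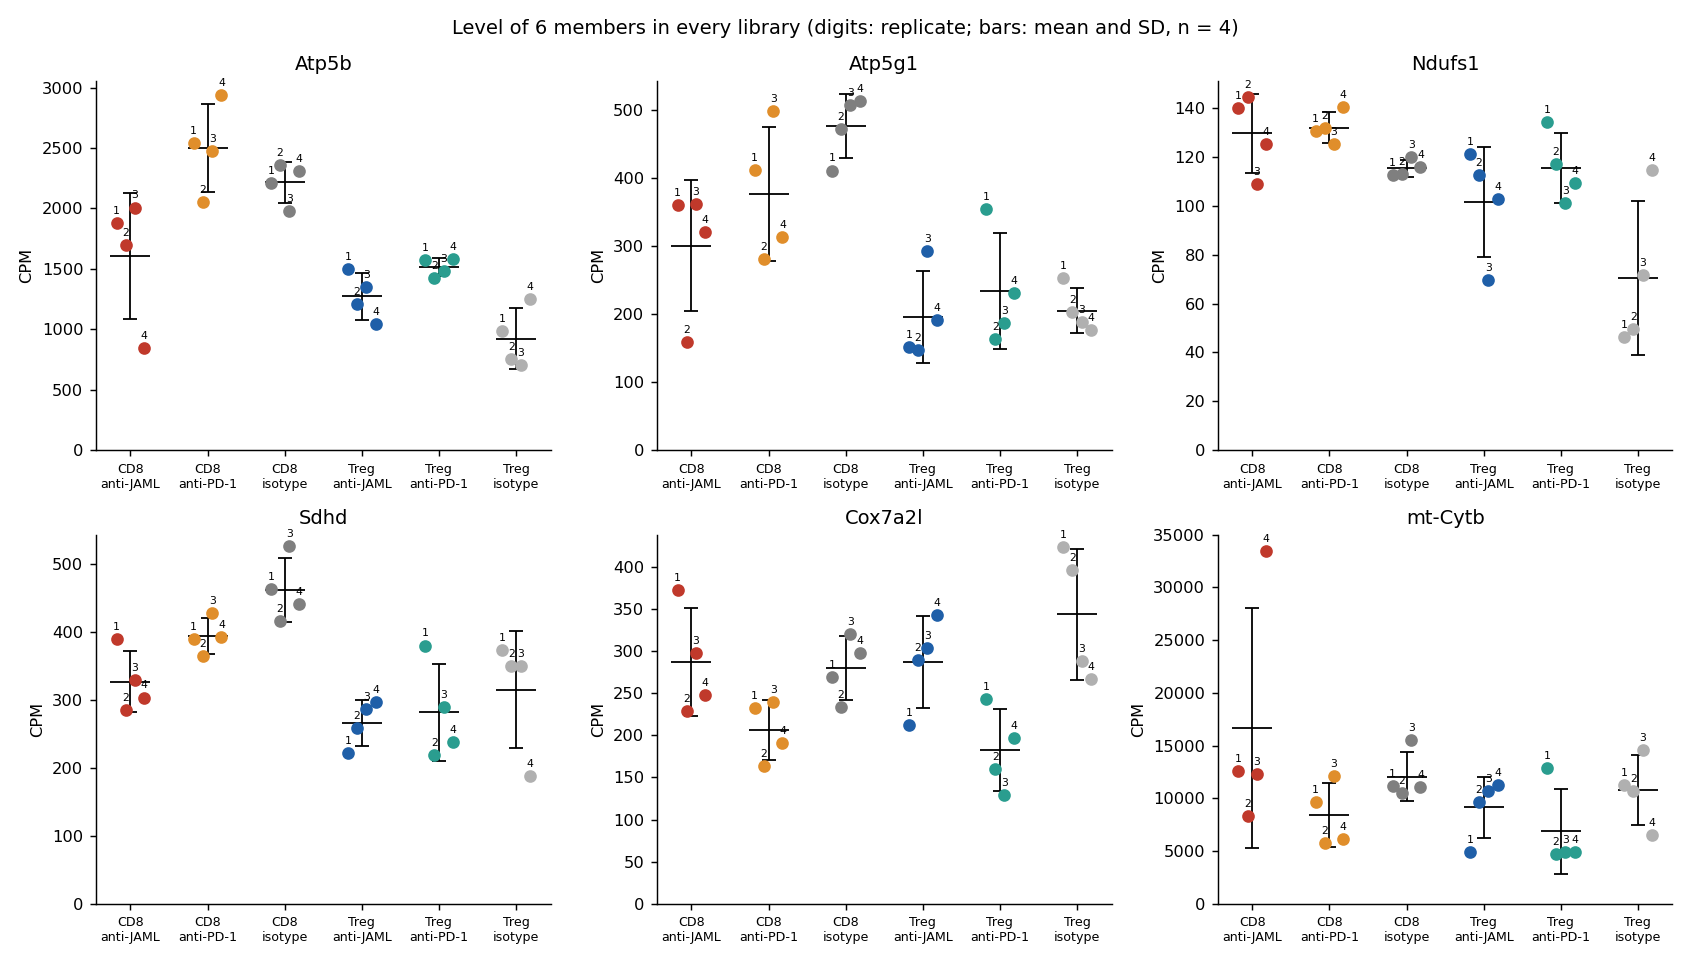
CPM of Atp5b, Atp5g1, Ndufs1, Sdhd, Cox7a2l and mt-Cytb in every library, with replicate numbers and the mean and SD of each group of 4. Atp5b is separate between CD8 and Treg after isotype and after anti-PD-1, Treg isotype replicate 4 lies apart for Ndufs1 and Sdhd, and CD8 anti-JAML replicate 4 lies apart for mt-Cytb (33470 CPM) and Atp5b (846 CPM).

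The promoters of nuclear respiratory genes are known to carry sites of NRF1, of the ETS factor GABP and of YY1. A RefSeq promoter window (GRCm38.p6, 250 bases before to 50 after the start) was at hand for 68 of the 85 protein-coding nuclear members. On either strand, the NRF1 palindrome (GCGCA and GCGC with any 1 base between them) was in 17 of 68 (25%), CCGGAA (the ETS core) in 26 (38.2%) and AAGATGG (the YY1 core) in 11 (16.2%), where the shares among all 27025 genes with a window were 5.19%, 16.7% and 7.28%. Those genes were taken without a filter on gene type, expression or base content. The sets are therefore unlike, and no enrichment particular to respiratory genes can be read from the shares. Of the 12 members called between CD8 and Treg cells after isotype, 10 had a window. For these only the 250 bases before the start were searched, so their counts cannot be set against the shares above. In that stretch 2 held the NRF1 palindrome, 5 the ETS core and 0 the YY1 core. The 2 with the NRF1 palindrome, Sdhd and Atp5h, held the ETS core there as well, as did Cox6a1. Their 250 bases before the start are shown, with both motifs in capitals (the ETS core as its reverse complement). A match of letters is no evidence of binding.
Sdhd (chr9:50603850-50604099, minus strand): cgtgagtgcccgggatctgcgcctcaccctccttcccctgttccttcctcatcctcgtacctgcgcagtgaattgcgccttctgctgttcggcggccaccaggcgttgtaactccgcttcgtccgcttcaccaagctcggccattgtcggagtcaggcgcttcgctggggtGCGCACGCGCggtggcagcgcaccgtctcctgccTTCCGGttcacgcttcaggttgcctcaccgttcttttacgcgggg
Atp5h (chr11:115419920-115420169, minus strand): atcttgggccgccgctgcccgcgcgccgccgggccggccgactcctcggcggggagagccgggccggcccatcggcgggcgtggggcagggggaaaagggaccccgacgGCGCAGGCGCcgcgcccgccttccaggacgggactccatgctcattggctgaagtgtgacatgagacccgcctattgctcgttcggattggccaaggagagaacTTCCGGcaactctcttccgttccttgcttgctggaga

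Other genes of respiration, taken from lists put together by function, were higher in CD8 than in Treg cells after isotype wherever they were called. Each count below stands against 7.09% of all genes tested called higher and 4.82% called lower in that comparison. Of 51 assembly factors tested, 6 were higher and 0 lower by edgeR, among them Tmem70, which assembles the ATP synthase (129 ± 20 CPM in CD8 and 65.5 ± 15.4 CPM in Treg, log2 fold change 1.12 ± 0.30, adjusted p = 0.0136), the complex I assembly factors Dmac1 (0.96 ± 0.27, 0.0194) and Ndufaf2 (1.26 ± 0.37, 0.0274), and the copper chaperone Cox17 (1.82 ± 0.54, 0.0290). Of 30 genes of mitochondrial transcription, RNA processing and DNA copying, 4 were higher and 0 lower (7.09% and 4.82% of all genes). These were the RNA-degrading nuclease Rexo2 (299 ± 33 and 153 ± 24 CPM, 1.11 ± 0.18, adjusted p = 0.000156, edgeR), Fastkd2 (2.59 ± 0.60, 0.00539) and Tbrg4 (1.46 ± 0.35, 0.00609), which act on mitochondrial RNA, and the transcription factor Tfb2m (1.27 ± 0.41, 0.0436). Of 12 regulators of nuclear respiratory genes, Myc was the one called (197 ± 7 and 96.3 ± 15.3 CPM, 1.18 ± 0.16, adjusted p = 3.81e-05, edgeR).

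Of 18 genes of the tricarboxylic acid cycle, which feeds NADH and succinate to the chain, 6 were higher and 0 lower in CD8 isotype than in Treg isotype libraries, against the same 7.09% and 4.82% of all genes tested. Idh3a of isocitrate dehydrogenase had 477 ± 24 CPM in CD8 and 215 ± 44 CPM in Treg libraries (1.29 ± 0.21, adjusted p = 0.000194, edgeR), and Pdhb, Mdh2 and Suclg2 followed with 1.03 ± 0.18, 0.84 ± 0.19 and 1.22 ± 0.28. Of 13 respiratory genes that the symbols above do not take in, 7 were higher and 0 lower (7.09% and 4.82% of all genes). Slc25a4 and Slc25a5, which exchange ADP for ATP across the inner membrane, had log2 fold changes of 1.14 ± 0.18 and 0.92 ± 0.21. Gpd2, which passes electrons from glycerol 3-phosphate to ubiquinone, had 86.4 ± 15.5 CPM in CD8 and 9.34 ± 4.34 CPM in Treg libraries (3.37 ± 0.61, adjusted p = 0.000624, edgeR), and Etfa 0.85 ± 0.19. Of 7 uncoupling and antioxidant genes, the thioredoxin Txn2 was called (0.75 ± 0.22, adjusted p = 0.0244, edgeR). The median over these lists ran from -0.12 for the uncoupling and antioxidant genes to 0.92 for the respiratory genes outside the symbols, against 0.00 over all genes tested.

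Rexo2, Myc, Idh3a, Pdhb, Slc25a4, Gpd2 and Txn2 were also higher in CD8 than in Treg cells under either of the other antibodies by the same edgeR test. Of all genes tested, 2.24% were called higher and 2.32% lower after anti-JAML, and 2.45% and 2.63% after anti-PD-1. Of the 7 uncoupling and antioxidant genes tested, 1 was higher and 2 were lower after anti-JAML. Of the 51 assembly factors tested, 1 was higher and 1 lower after anti-PD-1. After anti-JAML, Gpd2 had 66.2 ± 26.5 CPM in CD8 and 12.5 ± 14.8 CPM in Treg libraries (2.50 ± 0.59, adjusted p = 0.0129, edgeR), and Cyc1, the cytochrome c1 of complex III, was called as well (0.74 ± 0.21, adjusted p = 0.0410, edgeR). Ucp2, an inner membrane carrier named for uncoupling, was lower in CD8 than in Treg cells after anti-JAML (545 ± 152 and 992 ± 180 CPM, -0.76 ± 0.19, adjusted p = 0.0176, edgeR), as was the lipid peroxidase Gpx4 (-0.68 ± 0.19, adjusted p = 0.0369, edgeR). After anti-PD-1, the complex I assembly factor Ndufaf4 was higher (1.15 ± 0.28, adjusted p = 0.0183, edgeR) and the complex II assembly factor Sdhaf1 lower (-1.15 ± 0.33, adjusted p = 0.0397, edgeR) in CD8 cells. In the antibody comparisons within a population and in the interactions, 0 genes of these lists were called by edgeR, where 0 to 0.0231% of all genes tested were. The genes of smallest p there included Foxred1, an assembly factor of complex I, between Treg anti-PD-1 and Treg isotype (1.18 ± 0.35, adjusted p = 0.169, edgeR), and Myc in the same comparison (0.81 ± 0.18, adjusted p = 0.0940, edgeR).

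The members differ in length, and short and long ones did not move alike in every library. Among the 75 members of at least 10 TPM, 38 have a coding length of up to 423 bases and 37 a longer one. The log2 ratio of the counts in short over long members was 0.07, -1.35, -0.02 and 0.02 in CD8 anti-JAML, -0.03, -0.36, -0.02 and -0.64 in CD8 anti-PD-1, and 0.07, -0.00, 0.15 and 0.02 in CD8 isotype libraries. It was -0.37, -0.16, 0.04 and 0.14 in Treg anti-JAML, 0.02, -0.34, -0.46 and -0.20 in Treg anti-PD-1, and 0.24, 0.25, 0.16 and -0.15 in Treg isotype libraries. CD8 anti-JAML replicate 2 lay lowest, where the short subunit Cox6b1 had 173 CPM against 558 to 754 CPM in the other 3 libraries of its group. The median log2 fold change of short and long members was -0.61 and -0.43 between CD8 anti-JAML and isotype, and 0.60 and 0.60 between CD8 and Treg after isotype. Of the 12 members called in the last comparison, 1 was short and 11 were long.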

How the data were processed

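RNA of sorted tumour T cells was sequenced in 24 Smart-seq2 libraries, 4 in each of 6 groups. The authors deposited raw counts per gene and TPM per gene, both per the file headers. The submitters' processing notes name fastp 0.20.1, STAR 2.7.3a, SAMtools, deepTools 3.3.1 and the build mm10, with no roles. The counting tool, its strand setting and its handling of reads with several matches are not stated there or in the labels. Of 54957 gene rows, 54209 (98.64%) carry an ID and version of GENCODE M21, as do all 102 members. All columns were matched to a sample by name (0 left over).

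Counts were tested in R 4.3.3 with edgeR 4.0.16 (TMM scaling, genes kept at a minimum count of 10 and a total of 15, robust quasi-likelihood test, Benjamini-Hochberg adjustment over all genes tested, threshold 0.05). Antibody comparisons were fitted on the 12 libraries of a population, and CD8 against Treg and the interactions on all 24. CPM of single genes divide counts by the library total times edgeR's TMM factor over all 24 libraries, and sums of marker genes use the plain total. The factors for CPM were computed before the filter on low counts and those of the fits after it. Ratios of the CPM printed therefore differ somewhat from the fold changes beside them. Medians of mitochondrially encoded members cover the 7 with most counts, a choice made after seeing the data. The deposited TPM served to compare levels between genes. Alternatives used DESeq2 1.42.0, limma 3.58.1 on log2(TPM + 1), other scalings and filters, and fits without single libraries. Leaving out the 3 libraries with summed macrophage markers above 500 CPM was chosen after seeing the data. The fitting code was tested on simulated data.

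The members and lists were chosen with earlier results of these data known. The rule for named genes took the 13 mitochondrially encoded members, in each comparison the called nuclear members (up to 8 of smallest p in each direction), otherwise the member of smallest p in each complex, the most abundant subunit of each complex, alternative isoforms, Atp5g1 to Atp5g3, and up to 4 called genes of each other list. The members just outside a threshold were added to these. A result that this rule would name is not reported here. Replicates of a group correlated at 0.922 to 0.980 (log2 CPM), and none was a duplicate.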

Additional observations from a re-analysis of the deposited data

Results flagged for a closer look

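In 16 of 132 groups of 4 libraries examined, 1 library stood apart from the other 3 by Dixon's test. Chance gives about 5% for a single group. The groups are not independent, because the shares and the ratio contain single genes that were examined too, so no excess can be read from the count. Treg anti-PD-1 replicate 1 accounted for 7 of the 16. Its mitochondrially encoded share was 3.3819%, against 1.205 to 1.505% in the other 3 libraries. It had 7407.68 CPM of mt-Nd1 (others 2606 to 2909), 673.582 CPM of mt-Nd2 (228 to 296), 1281.92 CPM of mt-Nd4 (425 to 463), 166.394 CPM of mt-Nd6 (72.0 to 79.9) and 12903.8 CPM of mt-Cytb (4736 to 4922). Ndufa10, a nuclear subunit of complex I, was also highest there, at 231.785 CPM (170 to 175). Summed macrophage markers were 724 CPM in Treg anti-PD-1 replicate 1. They were 1224 CPM in replicate 4 of the same group, with a mitochondrially encoded share of 1.505%. The part of other cells in these values was not tested.

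CD8 isotype replicate 3 accounted for 4. Its log2 ratio of mitochondrially encoded to nuclear members was 0.1831, against -0.17 to -0.11 in the others, and it had 9810.41 CPM of mt-Nd1 (6521 to 6972), 11846.5 CPM of mt-Co1 (9418 to 9777) and 15506.7 CPM of mt-Cytb (10475 to 11192). Treg anti-JAML replicate 1 was low in mt-Nd4 (572.287 CPM, others 959 to 1037) and mt-Nd5 (1000.66 CPM, others 1634 to 1753). Single values that stood apart were Sdhd in Treg isotype replicate 4 (187.635 CPM, others 349 to 374), Ndufa12 in CD8 anti-JAML replicate 2 (124.804 CPM, others 308 to 332) and Ndufa10 in CD8 anti-PD-1 replicate 4 (285.993 CPM, others 233 to 241).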

How the results depend on the processing

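Of the group shares, medians and counts of called members, 428 kept their value within the bounds set and 58 moved under alternatives other than leaving out 1 library, and 822 kept it and 18 moved when 1 library was left out. Between CD8 and Treg after isotype, 12 members were called, against 5 with no filter on low counts (5 of the 12 shared), 44 with genes detected as a covariate (12), 20 by limma (10), 23 from the compared groups alone (7) and 26 without the libraries of high macrophage markers (12), and 7 to 20 when 1 library was left out. After anti-PD-1 the count was 1, against 0 with no filter, 3 by DESeq2, 4 by limma, 5 with the covariate, 6 without the libraries that stand apart and 23 without those of high macrophage markers, and 0 to 13 when 1 library was left out. Atp5b, the 1 call, was lost by limma, with no filter and without the libraries of high macrophage markers. After anti-JAML it was 0, against 1 by DESeq2, 3 by limma, 1 without the libraries that stand apart and 7 without those of high macrophage markers, and 0 to 3 when 1 library was left out. DESeq2 called 2 members in CD8 anti-JAML against isotype and 2 in Treg anti-PD-1 against isotype, where leaving out 1 library gave 0 to 1. Libraries of the same number under different antibodies did not deviate alike within a population (mean correlation of deviations 0.03 in CD8 and -0.04 in Treg). Whether CD8 and Treg libraries of the same antibody and number are paired was not tested apart. A replicate block, which joins a number over all groups, gave 19 members after isotype and 3 after anti-PD-1. The cause was not tested for any of these. Where no share of all genes called is given for a setting, a change in members cannot be told from a change over all genes.

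Sums of deposited TPM put the nuclear share at 4.14, 4.596 and 5.32% in CD8 anti-JAML, anti-PD-1 and isotype and at 3.67, 3.69 and 3.98% in the same Treg groups. The mitochondrially encoded share became 8.19, 4.62 and 5.96% in CD8 and 5.01, 3.88 and 5.58% in Treg groups, and the log2 ratio in CD8 isotype 0.15. Without the most abundant member of each side, the nuclear share in CD8 isotype was 3.11%, the mitochondrially encoded share 1.48% in CD8 anti-PD-1, 2.06% in CD8 isotype, 1.65% in Treg anti-JAML and 2.005% in Treg isotype, and the log2 ratio -0.0057, -0.85 and -0.60 in the CD8 and -0.33, -0.83 and -0.21 in the Treg groups. With genes detected as a covariate, the median of the 11 mitochondrially encoded members tested was -0.0145 for CD8 anti-PD-1 against isotype, 0.14 for CD8 anti-JAML against anti-PD-1, 0.43 and 0.28 for Treg anti-JAML and anti-PD-1 against isotype, 0.88 for CD8 against Treg after isotype and -0.41 for the anti-JAML interaction, and the nuclear median 0.20 and 0.29 for Treg anti-JAML and anti-PD-1 against isotype. Over the 7 abundant members the same medians were 0.061, -0.057, 0.46, 0.31, 1.00 and -0.54, in that order, and the anti-PD-1 interaction had 0.61 without the libraries of high macrophage markers and -0.12 to 0.60 when 1 library was left out.

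With that covariate, Sdhb (0.016), Uqcrq (0.11), Cox6a1 (0.13) and mt-Co1 (0.38) turned sign in Treg anti-JAML against isotype and Sdha (-0.21) in Treg anti-PD-1 against isotype. Sdhc turned in the anti-JAML interaction without the libraries that stand apart (0.0501) and in the anti-PD-1 interaction without those of high macrophage markers (0.13), where Uqcrc1 turned too (0.0027). Leaving out 1 library gave -0.31 to 0.0691 for Sdhc in the anti-PD-1 interaction and -0.13 to 0.70 for mt-Cytb in CD8 anti-JAML against isotype. None of these was called. Over all genes, DESeq2 called 215, 16 and 262 genes for CD8 anti-JAML against isotype, CD8 anti-PD-1 against isotype and CD8 anti-JAML against anti-PD-1, and 87, 619 and 61 for the same Treg comparisons, where edgeR called 0, 0, 1, 0, 3 and 0. For CD8 against Treg it called 1477 after anti-PD-1, 1318 after anti-JAML and 2637 after isotype (1272 higher and 1365 lower), against 741, 666 and 1737 (1034 higher and 703 lower) by edgeR, and 283 and 201 for the interactions. Limma called 53 for Treg anti-PD-1 against isotype and 1120 and 1071 for CD8 against Treg after anti-PD-1 and anti-JAML, and the compared groups alone gave 248 after anti-JAML. Limma on log2(TPM + 1) put the median of all genes at 0.21 in CD8 anti-JAML against isotype and 0.28 in Treg anti-PD-1 against isotype. Depth limits what can be said of members under 10 TPM and of the 6 mitochondrially encoded genes with few reads.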

Other observations

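The make-up of the mitochondrially encoded counts differed between the populations after isotype. The ratio of mt-Cytb to mt-Co1 counts was 1.14, 1.11, 1.31 and 1.17 in CD8 isotype libraries, against 0.97, 0.91, 1.02 and 0.90 in Treg isotype libraries. The groups did not overlap, with means of 1.18 ± 0.09 in CD8 and 0.95 ± 0.05 in Treg (SD, n = 4 each). mt-Co1 made up 30.3 ± 1.4% of the mitochondrially encoded counts in CD8 isotype and 35.7 ± 1.3% in Treg isotype libraries. After the antibodies single libraries spread the ratio more widely, with 1.12, 1.57, 1.10 and 2.14 in CD8 anti-JAML and 1.09, 1.14, 1.05 and 1.02 in Treg anti-JAML libraries. It was 1.23, 1.98, 1.24 and 0.90 in CD8 anti-PD-1 and 1.16, 0.97, 1.98 and 0.98 in Treg anti-PD-1 libraries, which overlapped. This ratio was chosen after its values were seen, and 51.1% of the windows of mt-Co1 also occur in another gene, so no test is given.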
